A study of Mus musculus with 36 samples.

Results

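The cardiac myosin heavy chain genes Myh6, Myh7 and Myh7b, together with the microRNAs carried in their introns, were followed in mouse left ventricle after myocardial infarction (MI). They were taken by name: 3 of the 16415 listed genes and 5 of the 624 listed mature miRNAs, or 8 of 17039 features. The miRNAs were miR-208a-3p, miR-208a-5p, miR-208b-3p, miR-499-5p and miR-499-3p. The rule named 6 arms, and miR-208b-5p was not among the rows used here. The rule used names and no measured value, although earlier results of these data were known when it was set.

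The study had sequenced mRNA and small RNA from left ventricles (LV) of C57BL/6 mice, males 8 weeks old at surgery, after ligation of the left anterior descending coronary artery (MI) or the same operation without occlusion (sham). Tissue was taken 1 day (early), 1 week (middle) and 8 weeks (late) after surgery. Each of the 6 groups held 3 mRNA and 3 small RNA libraries, 36 libraries in all, and the 18 mRNA libraries shared their names with the 18 small RNA libraries, which allowed a host mRNA and its miRNA to be set side by side. The RNA came from pooled LV, the number of animals behind a library is not given in the sources used here, and p-values therefore measure only the spread between libraries. Scar, border and remote muscle were not separated.

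Myosin heavy chain is the motor of the thick filament. Myh6 encodes the fast α isoform that predominates in the adult mouse ventricle, and Myh7 the slower β isoform of the fetal ventricle and of slow skeletal muscle, whose return is a classical sign of a stressed heart. Myh7b is a more distant relative expressed in heart and slow muscle. All 3 genes carry a miRNA in an intron, miR-208a in Myh6, miR-208b in Myh7 and miR-499 in Myh7b, and these miRNAs are known to take part in the control of slow against fast muscle genes.

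The mature sequences are shown because the miRNAs fall into families by their seed, bases 2 to 8 from the 5′ end, which are in capitals. They are RefSeq sequences of build GRCm38.p6.
miR-208a-3p: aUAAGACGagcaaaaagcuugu
miR-208b-3p: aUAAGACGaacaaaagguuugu
miR-499-5p: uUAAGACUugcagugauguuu
miR-208a-5p: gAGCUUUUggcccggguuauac
miR-208b-5p: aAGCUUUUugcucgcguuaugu
miR-499-3p: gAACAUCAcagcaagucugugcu
miR-208a-3p and miR-208b-3p shared the whole seed and were identical at 19 of 22 positions. They differed by G10A, A16G and C18U, counted from the 5′ end with the miR-208a-3p base written before the position. miR-499-5p shared bases 2 to 7 with both and differed in the seed by G8U. The minor arms miR-208a-5p and miR-208b-5p also shared their seed.

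The hairpins lay within introns of their hosts, on the strand of the host, in the RefSeq annotation of that build. Mir208a, at chr14:54949060-54949142, was in intron 29 of Myh6 (chr14:54941921-54968017, minus strand), a 542-base intron between exons 29 and 30 of 39. Mir208b, at chr14:54975700-54975776, was in intron 31 of Myh7 (chr14:54970684-54994626, minus strand), which has 41 exons. In both genes 10 exons followed the intron with the miRNA. Mir499, at chr2:155622880-155622958, was in intron 19 of the 42-exon gene Myh7b (chr2:155611243-155634307, plus strand). Myh6 and Myh7 were neighbours with 2666 bases between them. Their main GENCODE transcripts were close enough that 22.6% of 50-base windows of Myh7 and 11.4% of its 100-base windows were also found in Myh6, whereas no 50-base window of either was found in Myh7b. The values of Myh6 and Myh7 are therefore uncertain to the extent that reads from such windows were split between them.

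Myosin levels are given as the deposited FPKM (fragments scaled to the length of the transcript and the size of the library) and miRNA levels as counts scaled to TMM-adjusted library sizes (normalised CPM), with reads scaled to plain library totals (RPM) where they changed the picture. The small RNA libraries held 12094554 to 15999649 miRNA reads in the MI libraries of 1 day and 28647053 to 39735944 in all others, and the depth of the mRNA libraries is unknown. Scaling mattered in this tissue. On the log2(FPKM + 1) scale the median gene was 0.09, 0.79 and 0.52 higher in MI than in sham in the early, middle and late stage, and library totals alone put the median miRNA 0.50, 1.33 and 0.73 higher where TMM gave -0.09, 0.19 and -0.08. The 30 ventricular cardiomyocyte markers were all detected, with a summed level of 46450 to 54990 FPKM in sham libraries. Their sum was 18980 to 23420 FPKM in MI at 1 day, 4359 to 12070 FPKM at 1 week and 20010 to 43600 FPKM at 8 weeks. In such bulk tissue, fewer cardiomyocytes and less RNA per cardiomyocyte cannot be told apart. Other cells moved too: the sum of 7 listed neutrophil markers was 6175 to 10060 FPKM in early MI against 18.3 to 37.9 FPKM in early sham, and that of 9 activated fibroblast markers was 14750 to 18850 FPKM in middle MI against 186 to 236 FPKM in middle sham. The part of these cells in the levels below was not tested.

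Myh6, the α-myosin gene, fell at every stage and was lowest in the middle stage. At 1 day it read 2788, 2764 and 2734 FPKM in the 3 sham libraries and 786, 619 and 796 FPKM in the 3 MI libraries. At 1 week the sham libraries had 2636, 3531 and 3349 FPKM and the MI libraries 120, 231 and 553 FPKM. At 8 weeks the values were 3234, 3207 and 3695 FPKM in sham and 1946, 1280 and 884 FPKM in MI. The MI libraries were below all sham libraries of the same stage each time, and the MI libraries of 1 week differed more among themselves than those of 1 day. The log2 fold changes (MI minus sham) were -1.92 ± 0.39 (SE, n = 3 per group, limma adjusted p = 0.000338), -3.66 ± 0.39 (limma adjusted p = 2.21e-07) and -1.37 ± 0.39 (limma adjusted p = 0.00422). Ranked by mean FPKM, Myh6 was the 10th highest of the 16415 genes in sham at 1 day and at 1 week, and 46th and 186th in the MI libraries of these stages.

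Of the 3 host genes, Myh6 and Myh7b were called lower in the early stage, as were 30.6% of the 12858 genes tested, and 0 were called higher, against 39.7%. The same 2 genes were called lower in the middle stage, against 16.5% of all genes, and 0 higher, against 72.8%. In the late stage 2 were called lower against 10.6% of all genes, and 1 was called higher against 70.4%. All 3 passed the filter of 1 FPKM in 3 libraries, Myh7b only through its sham and late MI libraries.

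miR-208a-3p, the main product of the Myh6 intron, was called lower at the same stages as its host, by other amounts. At 1 day it stood at 1653, 1704 and 1552 normalised CPM in sham and 912, 950 and 873 in MI. At 1 week it stood at 1406, 1446 and 1464 in sham and 85.4, 135 and 216 in MI. At 8 weeks the values were 1573, 1776 and 1673 in sham and 281, 340 and 172 in MI. The groups did not overlap at any stage. The log2 fold changes were -0.84 ± 0.25 (SE, n = 3 per group, edgeR adjusted p = 0.00717), -3.31 ± 0.27 (edgeR adjusted p = 3.06e-09) and -2.66 ± 0.26 (edgeR adjusted p = 5.8e-08). The early change was the one that depended on scaling. In RPM the means were 1188 ± 86.3 in sham and 992 ± 24.2 in MI (s.d., n = 3), and with library totals alone the log2 fold change was -0.26 (edgeR adjusted p = 0.304).

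The minor arm miR-208a-5p was lower at all 3 stages. Its sham means were 80.8 ± 17.9, 58.4 ± 6.50 and 54.3 ± 10.7 normalised CPM (s.d., n = 3) and its MI means 17.7 ± 1.5, 6.13 ± 2.64 and 10.1 ± 3.16. At 1 day its log2 fold change was -2.19 ± 0.28 (SE, edgeR adjusted p = 3.42e-06), a larger change than that of the 3p arm from the same hairpin. The ratio of 5p to 3p reads within a library, a comparison added after the values were seen, differed between MI and sham by -1.33 on the log2 scale at 1 day, with no overlap between the groups, and by 0.08 and 0.26 in the later stages, where they overlapped (exact permutation test, two-sided p = 0.1, 0.6 and 0.3). With 3 libraries against 3 such a test cannot go below 0.1. The 5p arm rested on 223 to 344 reads per MI library at 1 day.

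Myh7, the β-myosin gene, was the only one of the 3 hosts that ended above sham. Its early values were 51.6, 65.5 and 50.2 FPKM in sham and 42.6, 38.6 and 37.1 FPKM in MI. The middle stage gave 45.6, 66.8 and 54.4 FPKM in sham and 47.2, 79.2 and 121 FPKM in MI. By 8 weeks it read 76.6, 83.5 and 60.2 FPKM in sham and 709, 386 and 285 FPKM in MI. The early MI libraries lay below the sham libraries, the middle groups overlapped, and the late MI libraries were all above the highest sham library. Only the late change passed the test, with a log2 fold change of 2.54 ± 0.31 (SE, n = 3 per group, limma adjusted p = 2.97e-06), a mean 6.26 times that of sham. The early value was -0.48 ± 0.31 (limma adjusted p = 0.176) and the middle value 0.48 ± 0.31 (limma adjusted p = 0.155). The early difference was called when that stage was fitted alone (limma adjusted p = 0.00253), and the middle value was below the median gene and turned to -0.48 with median-ratio scaling (limma adjusted p = 0.248). Without MI replicate 1 the middle value was 0.82 (limma adjusted p = 0.0164).

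Myh7 is also a slow skeletal muscle gene, and MI replicate 3 of 8 weeks had the most skeletal muscle RNA, with a sum of 346 FPKM over the 12 fast skeletal markers against 36.0 and 15.5 FPKM in the other late MI libraries and 7.47 to 9.26 FPKM in late sham. Of these 12 markers 8 passed the filter, 5 of them with late sham means below 1 FPKM, so their calls are not counted here. Myh7 was lowest in that library of the late MI group, and without it the late log2 fold change was at the upper end of the range from leaving out single libraries (2.17 to 2.83). The sum over the 4 listed slow skeletal markers was 9.96 to 17.4 FPKM in late MI and 11.5 to 13.4 FPKM in late sham. Tnni1 and Mybpc1, defining slow markers, were below the filter, with late MI means of 0.625 and 2.07 FPKM, and the late MI means of both were above those of late sham (0.255 and 0.0186 FPKM). The sum over the 6 listed atrial markers was 4894 to 10730 FPKM in late MI against 241 to 283 FPKM in late sham, nearly all of it Nppa, a natriuretic peptide gene also known to be induced in stressed ventricle (late MI mean of 6800 FPKM). Of the other listed atrial markers, late MI means were 76.2 FPKM for Dkk3, 35.2 FPKM for Tbx20 and 6.99 FPKM for Myl4. Those of Myl7 and Sln were 2.87 and 1.62 FPKM. In late sham the means were 0.53, 13.5, 1.42, 0.247 and 0.0616 FPKM in the same order, so Tbx20 was also present in sham ventricle. The part of skeletal or atrial muscle in the Myh7 level was not tested.

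The long noncoding RNA Mhrt, listed under its older symbol D830015G02Rik, is transcribed from the opposite strand of the Myh7 locus and shares 463 exonic bases with Myh7. Another antisense gene, Gm31251, shares 2547 exonic bases with Myh7, and Gm52092 shares 913 with Myh6, and neither was listed under these names. Whether the counting used strand is not given in the sources used here, so reads from these overlaps cannot be assigned with certainty. Mhrt is known as a cardiac RNA that declines under stress. In the early stage it read 50.7, 44.5 and 37.9 FPKM in sham and 18.5, 13.6 and 16.2 FPKM in MI. The middle values were 49.2, 42.1 and 48.9 FPKM in sham and 3.04, 5.94 and 13.6 FPKM in MI. The late values were 42.0, 42.0 and 52.9 FPKM in sham and 65.2, 33.5 and 27.1 FPKM in MI. The groups were apart at the early and middle stages and overlapped at the late stage. The log2 fold changes were -1.41, -2.68 and -0.21 (limma adjusted p = 0.00209, 2.55e-06 and 0.584), and the late value of D830015G02Rik was -0.91 with median-ratio scaling (limma adjusted p = 0.0498). In late MI the level of Myh7 in FPKM was above that of Mhrt in every library.

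miR-208b-3p, from the Myh7 intron, was the only member miRNA that ended above sham. It read 363, 364 and 418 normalised CPM in sham and 235, 254 and 194 in MI at 1 day. At 1 week it read 252, 339 and 302 in sham and 96.5, 155 and 197 in MI. At 8 weeks it read 547, 374 and 563 in sham and 1417, 1737 and 995 in MI. MI was below sham at the early and middle stages and above it at the late stage, without overlap. The log2 fold changes were -0.75 ± 0.24 (SE, n = 3 per group, edgeR adjusted p = 0.0115), -0.99 ± 0.24 (edgeR adjusted p = 0.000805) and 1.48 ± 0.24 (edgeR adjusted p = 2.13e-05). The early and middle calls depended on TMM scaling: in RPM the groups overlapped at both stages, and with library totals alone the values were -0.16 (edgeR adjusted p = 0.511) and 0.13 (edgeR adjusted p = 0.558). The late gain was larger in RPM, 358 ± 82.9 in sham and 1727 ± 378 in MI (s.d., n = 3).

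Myh7b was a low-level gene that fell below 1 FPKM in all early and middle MI libraries. It read 4.57, 3.72 and 3.77 FPKM in sham and 0.430, 0.384 and 0.450 FPKM in MI at 1 day. At 1 week the values were 5.26, 6.29 and 5.97 FPKM in sham and 0.187, 0.280 and 0.624 FPKM in MI. At 8 weeks they were 9.11, 6.95 and 7.52 FPKM in sham and 7.68, 3.40 and 1.74 FPKM in MI. MI and sham were apart at 1 day and 1 week and overlapped at 8 weeks, when MI replicate 1 lay within the sham range. The log2 fold changes, on the log2(FPKM + 1) scale that understates the change of low genes, were -1.82 ± 0.27 (SE, n = 3 per group, limma adjusted p = 1.86e-05), -2.34 ± 0.27 (limma adjusted p = 6.24e-07) and -0.90 ± 0.27 (limma adjusted p = 0.00639). With a pseudocount of 0.1 in place of 1 the early and middle values were -2.98 and -3.79. The late call was lost when that stage was fitted alone (limma adjusted p = 0.0738), and the late value ranged from -1.34 to -0.51 when single libraries were left out, with the weakest value without MI replicate 3 and the strongest without MI replicate 1.

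miR-499-5p, the main product of the Myh7b intron, was the second most abundant member miRNA in sham. It read 1183, 1069 and 1314 normalised CPM in sham and 652, 721 and 542 in MI at 1 day. The values at 1 week were 998, 1088 and 1079 in sham and 38.9, 83.5 and 113 in MI. Those at 8 weeks were 1445, 1538 and 1234 in sham and 169, 250 and 73.4 in MI. MI was below sham without overlap at every stage. The log2 fold changes were -0.90 ± 0.34 (SE, n = 3 per group, edgeR adjusted p = 0.0314), -3.75 ± 0.38 (edgeR adjusted p = 5.01e-08) and -3.10 ± 0.37 (edgeR adjusted p = 6.11e-07). The early call was the least firm of these, since it was lost with library totals alone, where the value was -0.31 (edgeR adjusted p = 0.384), and when any of 4 of the 6 early libraries was left out (edgeR adjusted p up to 0.1). The minor arm miR-499-3p had 30 to 102 reads per MI library at 1 week and 205 to 268 at 1 day. Its log2 fold changes were -0.40 (edgeR adjusted p = 0.407), -3.67 (edgeR adjusted p = 6.09e-07) and -3.16 (edgeR adjusted p = 3.41e-06).

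**Figure D1:**
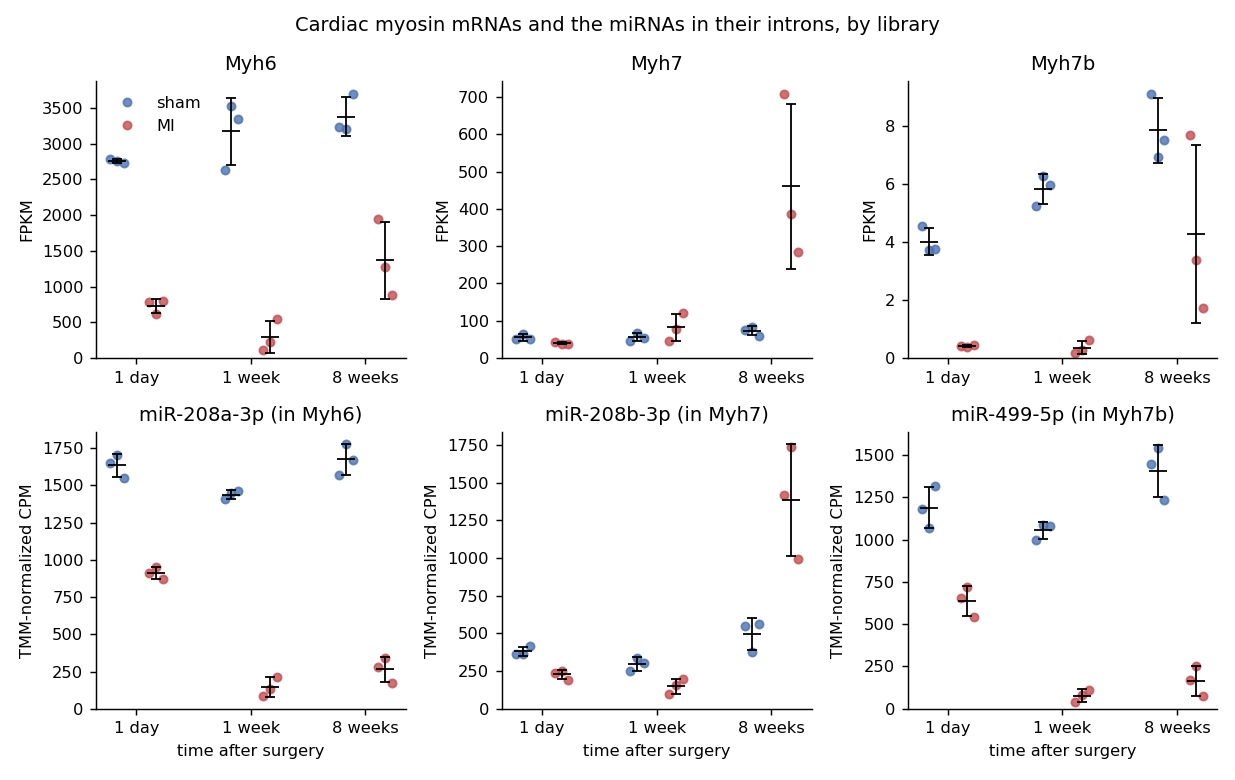
Levels of the 3 host mRNAs (top row, FPKM) and the main miRNA arm of each (bottom row, TMM-normalised CPM) against time after surgery. Points are libraries, blue for sham and red for MI, and black bars are the mean ± s.d. (n = 3); Myh7 and miR-208b-3p are above sham at 8 weeks, and the others are below it at each stage by their means.

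Of the 5 member miRNAs, 4 were called lower in the early stage, as were 35.2% of the 358 miRNAs tested, and 0 higher, against 27.4%. All 5 were called lower in the middle stage, against 39.7%, and 0 higher, against 47.5%. In the late stage 4 were called lower against 40.5% and 1 was called higher against 39.4%. All 5 passed the filter of 10 RPM in 3 libraries, miR-499-3p only through its sham and early MI libraries.

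The order of the group means differed between the α and β sides. For Myh6 the 3 sham groups stood highest, that of 1 week overlapping both others, followed by MI at 8 weeks, MI at 1 day and MI at 1 week, which did not overlap. Myh7 was highest in MI at 8 weeks, separate from all other groups, and lowest in MI at 1 day, also separate from the rest, while the other 4 groups overlapped. miR-208a-3p and miR-499-5p shared the order of MI groups, with 1 day above 8 weeks and 8 weeks above 1 week, and for both the middle and late MI groups overlapped. In sham, Myh7b had group means of 4.02 ± 0.48, 5.84 ± 0.53 and 7.86 ± 1.12 FPKM (s.d., n = 3) from the early to the late stage, and these 3 groups did not overlap. Differences between sham groups were not tested.

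For every member the MI effect differed between at least 1 pair of stages, although for miR-208a-5p the 1 called difference (1 week minus 1 day, -1.06, edgeR adjusted p = 0.0186) was lost with library totals alone (-0.53, edgeR adjusted p = 0.199) and without sham replicate 3 of 1 day (edgeR adjusted p = 0.0522). The change of Myh6 was stronger at 1 week than at 1 day by -1.74 ± 0.55 (SE, limma adjusted p = 0.01) and weaker at 8 weeks than at 1 week by 2.28 ± 0.55 (limma adjusted p = 0.00377), and its early and late changes differed by 0.55 ± 0.55 (limma adjusted p = 0.396). The late effect on Myh7 was above the early one by 3.02 ± 0.44 (limma adjusted p = 2.55e-05) and above the middle one by 2.06 ± 0.44 (limma adjusted p = 0.00174). For Myh7b the late effect was above the middle one by 1.43 ± 0.38 (limma adjusted p = 0.00731). Its difference between the late and early stages, 0.91 ± 0.38 (limma adjusted p = 0.0479), was lost with every other scaling tried. Over all genes, 71.8%, 47.1% and 63.7% had a called difference between 1 week and 1 day, between 8 weeks and 1 week and between 8 weeks and 1 day. The share with a call in at least 1 of these contrasts is no lower than 71.8% and was not counted.

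Among the miRNAs, miR-208b-3p had a late effect 2.48 ± 0.33 above the middle one (SE, edgeR adjusted p = 1.72e-05) and 2.23 ± 0.33 above the early one (edgeR adjusted p = 1.61e-05). miR-208a-3p was lowered more at 1 week than at 1 day, by -2.46 ± 0.35 (edgeR adjusted p = 7.16e-06), and its late effect exceeded the middle one by 0.64 ± 0.35 (edgeR adjusted p = 0.114). For miR-499-5p these differences were -2.85 ± 0.49 (edgeR adjusted p = 4.96e-05) and 0.65 ± 0.48 (edgeR adjusted p = 0.241). The corresponding hosts Myh6 and Myh7b, in contrast, each had a called difference between the late and middle stages, though host and miRNA were not compared in a single fit. Over all miRNAs, 76.3%, 60.6% and 72.6% had a called difference in these 3 contrasts, and the share with a call in at least 1 was not counted.

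The β to α ratio within a library does not depend on how libraries are scaled, and its course differed between hosts and miRNAs. The log2 ratio of Myh7 to Myh6 was -5.64 ± 0.21, -5.84 ± 0.11 and -5.54 ± 0.36 (s.d., n = 3) in sham at the 3 stages and -4.21 ± 0.21, -1.70 ± 0.44 and -1.61 ± 0.14 in MI. The log2 ratio of miR-208b-3p to miR-208a-3p reads was -2.10 ± 0.18, -2.28 ± 0.19 and -1.78 ± 0.41 in sham and -2.01 ± 0.14, 0.08 ± 0.18 and 2.41 ± 0.11 in MI. The host ratio was therefore 2.69, 17.7 and 15.2 times that of sham, and the miRNA ratio 1.07, 5.15 and 18.2 times. The host groups were apart at all 3 stages (exact permutation test, two-sided p = 0.1 each), whereas the miRNA groups overlapped at 1 day (exact p = 0.6) and were apart at 1 week and 8 weeks (exact p = 0.1 each).

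**Figure D2:**
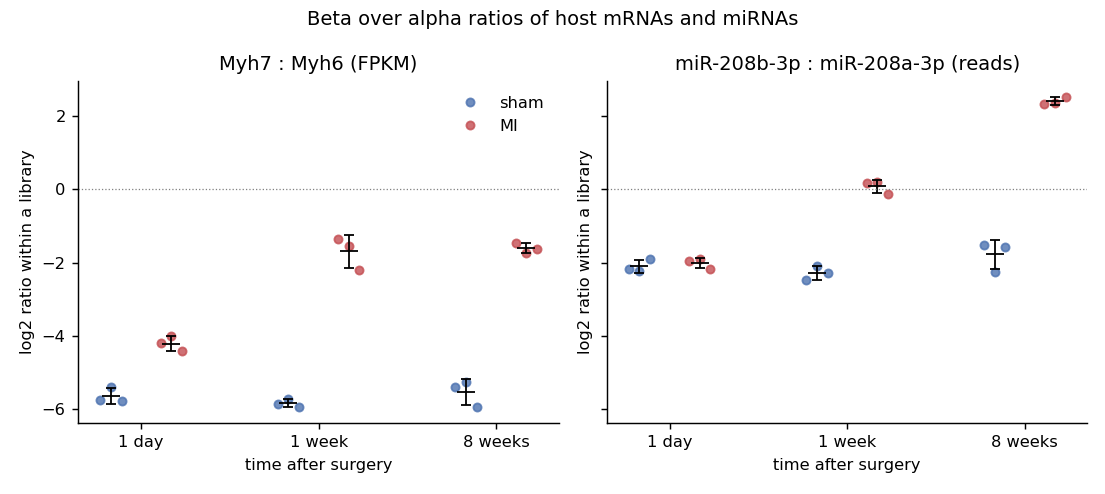
Log2 ratio of Myh7 to Myh6 FPKM (left) and of miR-208b-3p to miR-208a-3p reads (right) in each library against time after surgery. Points are libraries (blue sham, red MI) and bars the mean ± s.d. (n = 3); the host ratio in MI is near its late level of -1.61 by 1 week, at -1.70, whereas the miRNA ratio goes from -2.01 through 0.08 to 2.41.

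Subtracting the host ratio from the miRNA ratio in each library pair gave the distance between them. The difference was 3.54 ± 0.35, 3.56 ± 0.16 and 3.75 ± 0.69 (s.d., n = 3) in sham and 2.2 ± 0.09, 1.78 ± 0.27 and 4.01 ± 0.20 in MI. MI minus sham came to -1.34 at 1 day and -1.78 at 1 week, without overlap (exact permutation test, two-sided p = 0.1 each), and to 0.26 at 8 weeks, where the groups overlapped (exact p = 0.7). Leaving out single libraries gave -1.52 to -1.17, -1.92 to -1.65 and -0.11 to 0.57. In all, 39 such within-library comparisons were made, 25 of them at the smallest possible p, and the lowest adjusted p was 0.156.

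As shares, Myh7 was 1.98 ± 0.29%, 1.72 ± 0.13% and 2.15 ± 0.49% (s.d., n = 3) of the summed Myh6 and Myh7 FPKM in sham, and 5.15 ± 0.70%, 23.9 ± 5.34% and 24.8 ± 1.78% in MI. miR-208b-3p was 18.9 ± 1.97%, 17.1 ± 1.90% and 22.8 ± 4.69% of miR-208a-3p plus miR-208b-3p reads in sham and 19.9 ± 1.53%, 51.4 ± 3.16% and 84.1 ± 1.04% in MI. These read shares rested on 10438 to 100800 reads per library, and their 95% Wilson intervals reached at most 0.96 percentage points to either side, which covers counting error only. The late MI libraries were alike in their shares but not in their totals: the sum of Myh6 and Myh7 was 2655, 1666 and 1169 FPKM in MI replicates 1, 2 and 3, while the share of Myh7 was 26.7%, 23.2% and 24.4% and that of miR-208b-3p 83.4%, 83.6% and 85.3%. The middle MI libraries likewise had totals of 167, 310 and 674 FPKM with Myh7 shares of 28.2%, 25.5% and 17.9%.

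**Figure D3:**
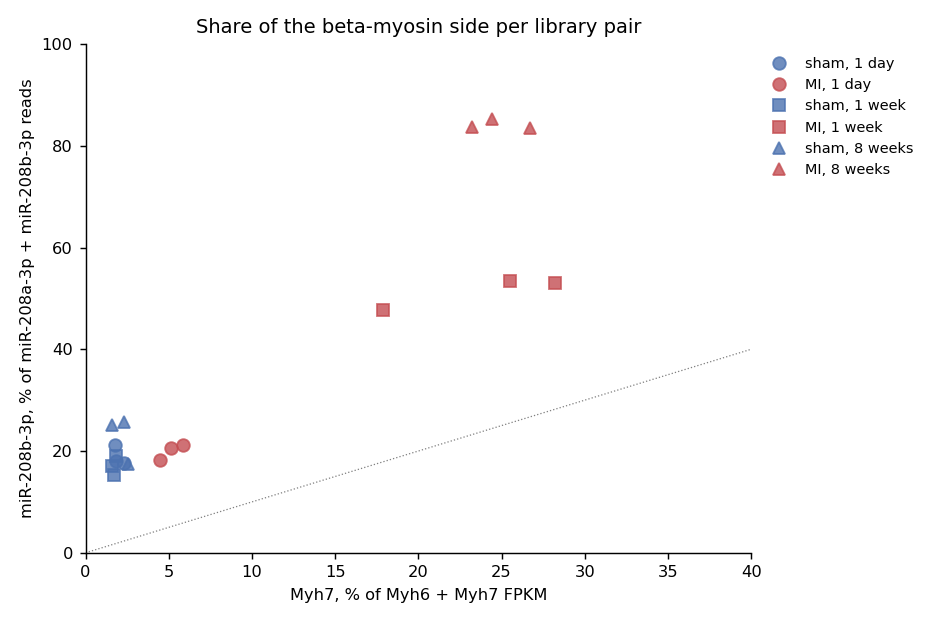
Share of Myh7 in Myh6 plus Myh7 (x axis, % of FPKM) against share of miR-208b-3p in miR-208a-3p plus miR-208b-3p (y axis, % of reads) for the 18 library pairs of the same name. Colour marks sham (blue) or MI (red), the symbol marks the stage and the dotted line marks equal shares; MI of 1 week and 8 weeks have similar host shares, 23.9% and 24.8% on average, but miRNA shares of 51.4% and 84.1%.

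The change of each miRNA was also set against the change of its own host in the same pair of libraries, which does depend on scaling. miR-208a-3p changed less than Myh6 at 1 day, by 1.08 on the log2 scale, and more than Myh6 at 8 weeks, by -1.34, without overlap at either stage (exact permutation test, two-sided p = 0.1 each). At 1 week the difference was 0.26 (exact p = 0.5). With plain RPM these values were 1.66, 1.39 and -0.54, so that the order of stages held and the middle value moved to the side of the early one.

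miR-499-5p and Myh7b gave the widest swing. The change of miR-499-5p minus that of Myh7b was 2.35 at 1 day and -2.13 at 8 weeks, without overlap (exact permutation test, two-sided p = 0.1 each), and 0.31 at 1 week (exact p = 0.2). With RPM the values were 2.94, 1.44 and -1.33 from the early to the late stage, and with median-ratio host values the late one was -1.42. The late MI libraries of Myh7b overlapped sham whereas those of miR-499-5p were at 73.4 to 250 normalised CPM against 1234 to 1538 in sham. For miR-208b-3p against Myh7 the differences were -0.26, -1.52 and -1.08 (exact p = 0.2, 0.1 and 0.2), and with RPM they were 0.33, -0.39 and -0.28.

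**Figure D4:**
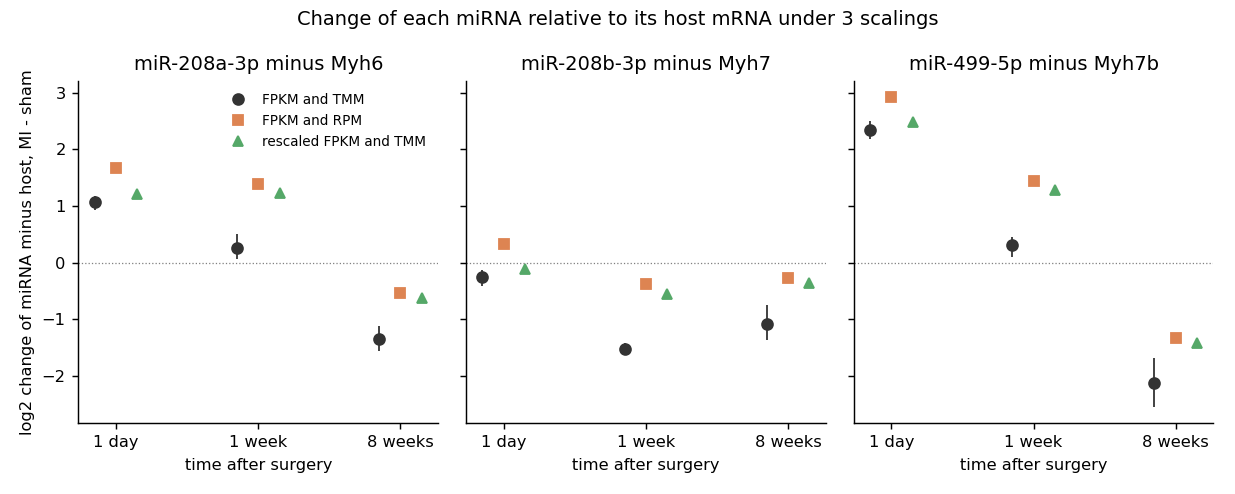
Change of each miRNA minus the change of its host mRNA (log2, MI minus sham) at 3 stages, under 3 scalings: FPKM with TMM-normalised CPM (circles), FPKM with RPM (squares) and FPKM rescaled by median-ratio factors with TMM (triangles). Vertical lines span the values with single libraries left out; for miR-208a-3p and miR-499-5p the early values are above 0 and the late ones below 0 under each scaling, such as 2.35 and -2.13 for miR-499-5p.

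Because ventricular cardiomyocyte markers fell as well, with 26, 30 and 18 of 30 called lower in turn against 30.6%, 16.5% and 10.6% of all genes and median log2 fold changes of -1.28, -2.69 and -0.70, each host was set against their mean in the same library. Myh6 minus the markers differed between MI and sham by -0.61, -0.76 and -0.55 on the log2 scale at the 3 stages. For Myh7 the differences were 0.83, 3.37 and 3.36, so that it stood above sham on this measure also at the early and middle stages, where its FPKM was not called higher. For both genes MI and sham were apart at every stage (exact permutation test, two-sided p = 0.1 each). Myh7b differed by -0.51 at 1 day, without overlap, and by 0.56 and -0.08 at 1 week and 8 weeks, with overlap (exact p = 0.1, 0.2 and 0.6), although 1 FPKM was added to each value, which holds a gene this low near 0. With the 15 most abundant markers alone the middle difference of Myh6 was -0.33 and its groups overlapped (exact p = 0.2).

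**Figure D5:**
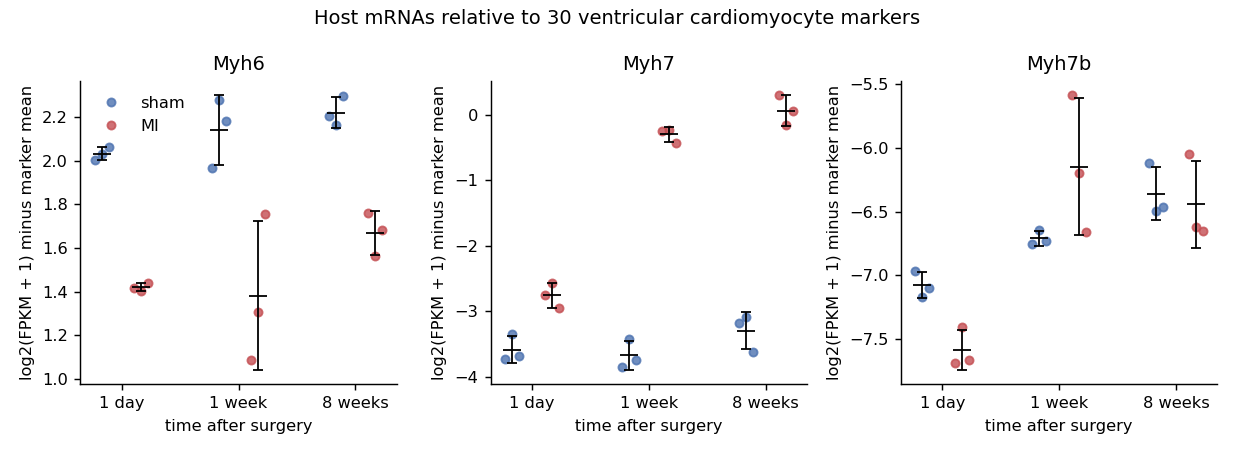
Log2(FPKM + 1) of Myh6, Myh7 and Myh7b minus the mean of 30 ventricular cardiomyocyte markers in the same library, against time after surgery. Points are libraries (blue sham, red MI) and bars the mean ± s.d. (n = 3); the vertical axes differ and do not start at 0, and Myh7 goes from -3.58 in sham to -2.76 in MI at 1 day and from -3.29 to 0.06 at 8 weeks.

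Within groups, no correlation between host mRNA and miRNA passed its test. Over the 18 pairs, deviations from the group means correlated with Pearson's r = 0.849 and Spearman's rho = 0.476 for Myh6 and miR-208a-3p (exact permutation within groups, p = 0.1 and 0.149). For Myh7 and miR-208b-3p the values were 0.561 and 0.329 (exact permutation p = 0.172 and 0.327), and for Myh7b and miR-499-5p 0.538 and 0.354 (exact permutation p = 0.33 and 0.275). Adjusted over the 3 pairs, the p-values of r were 0.258, 0.258 and 0.33. Without the 2 pairs farthest from the median of the host, r was 0.551, 0.472 and 0.354 (exact permutation p = 0.602, 0.164 and 0.418), so the value for Myh6 rested largely on MI replicates 1 and 3 of 1 week.

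The genes most like Myh6 across the 18 mRNA libraries, by Pearson's r of log2(FPKM + 1) among 7348 genes, were Srl, Pygm, Mdh1 and Cpt1b (r = 0.997 to 0.993). Those most like Myh7b were Spg7, Ivns1abp, Srpk3 and Aes (0.975 to 0.972), and those most like Myh7 were Alkbh6, Psmb10, Vti1b and Mapk12 (0.918 to 0.888). Among 192 miRNAs, miR-499-5p was the closest to miR-208a-3p (r = 0.995) although they come from genes on different chromosomes, and Myh6 and Myh7b had r = 0.901. miR-208b-3p was closest to let-7b-5p, miR-125b-5p, let-7c-5p and miR-23b-3p (0.898 to 0.806). The r of a host with its own miRNA over all libraries was 0.837 for Myh6, 0.782 for Myh7 and 0.608 for Myh7b. These are descriptions over 18 libraries that share 6 groups, which all values above follow.

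Partners of cardiac myosin in the sarcomere were called lower more than higher at each stage. The list of 18, of which 14 were tested, held light chains, binding proteins, M-band proteins, myosin chaperones and others. In the early, middle and late stage 11, 11 and 7 were called lower, against 30.6%, 16.5% and 10.6% of all genes. The numbers called higher were 0, 1 and 3, against 39.7%, 72.8% and 70.4%. The list had median log2 fold changes of -1.27, -2.32 and -0.68. The 30 cardiomyocyte markers, which also include its members Mybpc3, Myom1 and Ttn, had -1.28, -2.69 and -0.70. Myl2 and Myl3, the ventricular light chains, had middle values of -3.84 and -3.76 (limma adjusted p = 2.09e-07 and 1.36e-07). Smyd1, a methyltransferase that acts with myosin chaperones, had -3.20 (limma adjusted p = 5.4e-08), and the caveolar protein gene Murc -2.85 (limma adjusted p = 5.12e-08). The members called higher at 8 weeks were the atrial light chains Myl4 and Myl7 and the fast-muscle binding protein Mybpc2, named after their values were seen. Myl7 averaged below 1 FPKM in every group except late MI (2.87 FPKM), so it passed the filter largely through the group where it was high. With median-ratio scaling 1 was called higher at 8 weeks, Myl4, against 35.6% of all genes. The number called lower was 11, against 37.1%.

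Other myosin heavy chains did not follow Myh6 or Myh7 as a set. Of the other muscle heavy chains only the smooth muscle gene Myh11 passed the filter, with log2 fold changes of -1.52, 0.73 and 2.06 (limma adjusted p = 4.73e-09, 7.36e-06 and 7.38e-10), the middle one -0.16 with median-ratio scaling. The skeletal genes Myh1, Myh2, Myh4, Myh8 and Myh13 were below 1 FPKM on average in every sham group, and Myh1 and Myh2 averaged 4.79 and 5.95 FPKM in late MI, the group that includes the library with the most skeletal muscle RNA. The non-muscle gene Myh9 was higher at all 3 stages (2.66, 2.89 and 1.21, limma adjusted p = 1.66e-07, 3.39e-08 and 0.000526). Myh10 had 0.51, 2.86 and 1.35 (limma adjusted p = 0.0528, 8.21e-09 and 5.43e-05), the early one called with median-ratio scaling (0.39, limma adjusted p = 0.0357). Myh14 had -1.72, -1.68 and -0.21 (limma adjusted p = 1.35e-06, 8.83e-07 and 0.347), the late one called with median-ratio (-0.84, limma adjusted p = 0.00572) and quantile scaling (-0.80, limma adjusted p = 0.0144).

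The listed targets of the miR-208 and miR-499 families, genes that had been reported elsewhere as targets, are shown with their seed matches. The seeds were searched as reverse complements on the transcript strand of GENCODE 3′ UTRs. The complement of the miR-208 seed, CGTCTTA, was present in 3 of the 10 listed 3′ UTRs and in 1.98% of 11886 searched. That of the miR-499-5p seed, AGTCTTA, was present in 5 of the 10 and in 10.6% of all. The 6 bases that both share, GTCTTA, were present in 9 of the 10 and in 28.7%. As a seed match is often part of why a gene is reported as a target, these counts are a description. Matches in Med13, Sox6 and Pdcd4, chosen as the targets most often tied to these miRNAs, are given with the match in capitals.
Med13, miR-208 match: aatatatgtaatCGTCTTAattaaaacgtt
Sox6, miR-208 match: tctgcccatcgcCGTCTTAtgagtcttaca
Sox6, miR-499-5p match next to it: cgccgtcttatgAGTCTTAcatttctgtct
Pdcd4, miR-499-5p match: agcaactcttacAGTCTTAggtgttaccaa
In Sox6 the matches of both families started at bases 276 and 285 of the 3′ UTR.

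Of 9 tested targets, 3, 8 and 6 were called higher at the 3 stages, against 39.7%, 72.8% and 70.4% of all genes. In turn 3, 1 and 0 were called lower, against 30.6%, 16.5% and 10.6%. With median-ratio scaling 3, 4 and 1 were called higher and 5, 2 and 5 lower. Of all genes, 39.0%, 41.7% and 35.6% were higher with that scaling and 37.9%, 39.6% and 37.1% lower. The balance of the list thus changed with the scaling, as did that of all genes. Pdcd4, a regulator of translation and cell death, had log2 fold changes of -0.82, 1.43 and 1.47 (limma adjusted p = 0.00147, 4.03e-06 and 7.76e-06), with the same signs under median-ratio scaling. Sp3, a transcription factor, had 0.73, 1.30 and 0.84 (limma adjusted p = 0.00311, 9.27e-06 and 0.000956), the last not called with median-ratio scaling (limma adjusted p = 0.193). At 1 week the calcineurin subunit gene Ppp3ca had 1.10 (limma adjusted p = 2.2e-07) and the kinase gene Dyrk2 1.31 (limma adjusted p = 2e-06), which were 0.19 and 0.46 with median-ratio scaling (limma adjusted p = 0.00938 and 0.00196). Outside the naming rule, the Mediator subunit gene Med13 had 0.64, 1.01 and 0.26 (limma adjusted p = 0.00173, 1.49e-05 and 0.136), of which the middle and late ones were 0.17 and -0.34 with median-ratio scaling (limma adjusted p = 0.124 and 0.00607). Sox6, a repressor of slow-fibre genes also outside that rule, had -0.59, -0.61 and 0.12 (limma adjusted p = 0.000254, 9.91e-05 and 0.34), and it was the target called lower at 1 week. Its late value was -0.32 with median-ratio scaling (limma adjusted p = 0.00363).

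Thyroid hormone is the classical regulator of the choice between α and β myosin. Of 11 tested genes of its axis, 2, 7 and 7 were called higher at the 3 stages and 6, 1 and 2 lower, where 39.7%, 72.8% and 70.4% of all genes were higher and 30.6%, 16.5% and 10.6% lower. With median-ratio scaling 3, 4 and 3 were higher and 8, 7 and 6 lower. Of all genes, 39.0%, 41.7% and 35.6% were higher with that scaling and 37.9%, 39.6% and 37.1% lower. The higher counts of the axis include Dio2 at every stage under both scalings. They also include Dio3, named for this reason alone, at 1 week and 8 weeks under both and at 1 day with median-ratio scaling. Both genes passed the filter through MI libraries alone, which favours a higher call. Rxrg, a nuclear receptor partner of the thyroid hormone receptors, was lower at all stages under both (log2 fold changes of -2.94, -3.14 and -1.65, limma adjusted p = 2.11e-08, 6.15e-09 and 1.48e-05). Thra, the main cardiac receptor gene, was lower at 1 day (-1.73, limma adjusted p = 6.66e-08), with 0.11 and 0.21 later (limma adjusted p = 0.488 and 0.221), values that were -0.81 and -0.48 with median-ratio scaling. The activating deiodinase gene Dio2 had means of 0.231, 0.191 and 0.152 FPKM in sham and 0.643, 1.97 and 3.06 FPKM in MI, given as a description since it passed the filter through middle and late MI alone.

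Among 16 regulators of cardiac myosin genes, 3, 9 and 6 were called higher, against 39.7%, 72.8% and 70.4% of all genes, and 7, 4 and 2 lower, against 30.6%, 16.5% and 10.6%. The counts were 3, 2 and 3 higher and 9, 10 and 10 lower with median-ratio scaling. Of all genes, 39.0%, 41.7% and 35.6% were higher with that scaling and 37.9%, 39.6% and 37.1% lower. Nkx2-5 and Tbx5, transcription factors of the myocyte lineage, were lower at 1 day and 1 week (Nkx2-5 -0.86 and -1.47, limma adjusted p = 0.000223 and 4.43e-07, and Tbx5 -0.92 and -1.20, limma adjusted p = 1.96e-07 and 5.87e-09). Tead3, a member of the family of TEA domain transcription factors, was higher in the later stages (1.78 and 1.00, limma adjusted p = 1.71e-09 and 1.92e-06). Eya4, a cofactor linked to slow-to-fast fibre type, was at a mean of 0.0514 FPKM in sham and 3.89 FPKM in MI at 1 week. This is given as a description since Eya4 passed the filter through MI libraries alone, although the counts above include it as higher at 1 week and 8 weeks. All 4 kept their signs at these stages with median-ratio scaling.

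Most other muscle miRNAs were lower as well. Of 6 tested, 4, 6 and 6 were called lower in the early, middle and late stage and 0 were called higher. Of all miRNAs, 35.2%, 39.7% and 40.5% were called lower and 27.4%, 47.5% and 39.4% higher. The median log2 fold changes of the 6 were -0.83, -3.42 and -2.36, with miR-486a-5p and miR-486b-5p both counted. Over all miRNAs the medians were -0.09, 0.19 and -0.08. miR-1a-3p, from a different muscle locus, had -3.21, -4.72 and -3.79 (edgeR adjusted p = 9.14e-08, 3.37e-10 and 7.25e-09). miR-133a-3p had -1.31, -3.83 and -2.50 (edgeR adjusted p = 0.0022, 1.89e-08 and 2.96e-06), and its minor arm miR-133a-5p had 0.14, -4.03 and -2.56 (edgeR adjusted p = 0.708, 3.47e-09 and 7.45e-07). miR-486a-5p, whose counts equalled those of its copy miR-486b-5p in all 18 libraries so that the pair is 1 measurement and the counts above come to 3, 5 and 5 of 5, had -0.83, -3.02 and -2.22 (edgeR adjusted p = 0.00126, 3.23e-10 and 2.03e-08). None of the 6 was called higher at 8 weeks, when miR-208b-3p and 39.4% of all miRNAs were.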

How the data were processed

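RNA was sequenced from pooled mouse left ventricles by TruSeq libraries. Per the labels the authors used mm10, with TopHat2 2.0.13, Bowtie2 2.2.3 and Cufflinks 2.2.1 named in the processing notes; the miRNA counter is not given in the sources used here. The deposited gene table gives FPKM and the authors' normalised log2 values, and the deposited miRNA table gives raw read counts and RPM. Both also hold the authors' own fold changes and p-values, which were not used. Depth is known for the miRNA counts and not for FPKM. Groups came from the sample labels, and 0 columns of per-sample values were left out.

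A gene had to reach 1 FPKM in 3 libraries, which 12858 did, and was tested on log2(FPKM + 1) with limma 3.58.1 (trend, 6 groups, 12 residual degrees of freedom), in R 4.3.3. A miRNA had to reach 10 RPM in 3 libraries, which 358 did, and was tested on raw counts with edgeR 4.0.16 (TMM, quasi-likelihood). p-values were adjusted by Benjamini-Hochberg over all features tested, and a call is an adjusted p below 0.05. MI was compared with sham at each stage, and these effects between stages. Within-library ratios were compared by exact permutation tests (SciPy), whose smallest p is 0.1. The fits were tested on simulated data. DESeq2 1.42.0 and other scalings, filters and pseudocounts were alternatives. Members and lists were chosen with earlier results of these data known. Named genes were the members, up to 4 called members of each list with the largest change at any stage, and the 4 features most like each host or main arm (mean of at least 5 FPKM or 50 RPM); exceptions are marked, and 1 gene that the rule named is not reported here. The arm ratios, Myh7b to Myh6 and miR-499-5p to miR-208a-3p were added after seeing the data.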

Additional observations from a re-analysis of the deposited data

Results flagged for a closer look

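For all 8 members the effect of MI differed between stages by a test of the difference itself, and each of the following values is a difference between log2 fold changes (MI minus sham). From 1 day to 1 week the effect went down by a further -1.736 for Myh6 (limma adjusted p = 0.01), and by -2.462 for miR-208a-3p, -1.064 for miR-208a-5p, -2.853 for miR-499-5p and -3.271 for miR-499-3p (edgeR adjusted p = 7.16e-06, 0.0186, 4.96e-05 and 8.07e-05). The value of miR-208a-5p, its single called difference, was not called with library totals alone (-0.525, edgeR adjusted p = 0.199), with RPM in limma (-0.547, limma adjusted p = 0.155) or without sham replicate 3 of 1 day (-0.89, edgeR adjusted p = 0.0522). From 1 week to 8 weeks it went up by 2.283 for Myh6, 2.062 for Myh7 and 1.433 for Myh7b (limma adjusted p = 0.00377, 0.00174 and 0.00731), and by 2.476 for miR-208b-3p (edgeR adjusted p = 1.72e-05).

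Between 1 day and 8 weeks the effect differed by 3.02 for Myh7 and 0.913 for Myh7b (limma adjusted p = 2.55e-05 and 0.0479), by 2.229 for miR-208b-3p (edgeR adjusted p = 1.61e-05), and by -1.818 for miR-208a-3p, -2.201 for miR-499-5p and -2.756 for miR-499-3p (edgeR adjusted p = 0.000207, 0.000693 and 0.000433). Such differences were common in these libraries, with 47.1% to 71.8% of all genes and 60.6% to 76.3% of all miRNAs called in the 3 contrasts. The share called in at least 1 contrast, the measure met by all members, is no lower than 71.8% and 76.3% and was not counted. In their signs the host and main miRNA of the Myh7 locus were alike in the late contrasts. Myh7b and miR-499-5p had opposite signs between 1 day and 8 weeks, 0.913 and -2.201, and that contrast between host and miRNA was not tested in a single fit.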

How the results depend on the processing

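Leaving out single libraries gave 666 values of 126 results, and 641 were rated the same. Other alternatives gave 420 values, and 344 were rated the same. For fits this meant that the call held, and a change of sign counted only where either value was called. For within-library values it meant a shift below the larger s.d. of the groups compared. List counts had to stay similar, and correlations had to keep the outcome of their test. The cause of the changes below was not tested. With library totals in edgeR or RPM in limma, miR-208b-3p at 1 week turned to 0.131 and 0.096, and the 1 day values of miR-208a-3p (-0.26 and -0.257), miR-208b-3p (-0.161 and -0.165) and miR-499-5p (-0.313 and -0.315) were no longer called. miR-499-5p at 1 day was also lost without a filter (-0.705) and at a mean of 50 RPM (-0.673). Median-ratio factors, in DESeq2 and in edgeR, made the difference of miR-208a-3p between 8 weeks and 1 week a call (0.847). For Myh7b the difference between 8 weeks and 1 day was lost with quantile (0.392) and median-ratio scaling (0.504) and with the authors' normalised values (0.349), which also ended that between 8 weeks and 1 week (1.162). Each stage fitted alone gave the same values, with Myh7 at 1 day now called (-0.481) and Myh7b at 8 weeks not (-0.903).

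The miRNA minus host values moved with RPM to 1.664, 1.393 and -0.539 for miR-208a-3p at the 3 stages, 0.326, -0.386 and -0.28 for miR-208b-3p, and 2.936 and 1.443 for miR-499-5p at 1 day and 1 week. With median-ratio host values they moved to 1.225 and -0.629 for miR-208a-3p and -0.554 and -0.37 for miR-208b-3p at 1 week and 8 weeks, and 1.275 for miR-499-5p at 1 week. Against 15 markers Myh6 had -0.664, -0.334 and -0.418, and Myh7 3.797 at 1 week.

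Leaving out single libraries gave 0.152 to 0.822 for Myh7 at 1 week, called without MI replicate 1, and 0.633 to 1.303 for its difference between 1 week and 1 day, called without that library or sham replicate 2 of 1 week. The difference of Myh7b between 8 weeks and 1 day (0.473 to 1.304) was lost without any of 10 of its 12 libraries, all but sham replicate 1 and MI replicate 3 of 8 weeks. Without MI replicate 3 of 1 week or of 8 weeks, the differences between these stages of miR-208a-3p (0.422 to 1.133) and miR-499-5p (0.213 to 1.102) became calls. At 1 day, miR-208b-3p (-0.832 to -0.644) was lost without MI replicate 3, and miR-499-5p (-0.994 to -0.792) without MI or sham replicate 1 or 3.

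The replicate numbers were not taken as pairs of samples. Correlations of same-numbered deviations went from -0.451 to 0.29, and whether the numbers pair the samples was not tested. A replicate block made the difference of Myh7 between 1 week and 1 day a call (0.957, limma adjusted p = 0.0227) and no other call of these results changed. With the block, 8922, 11407 and 10282 genes were called at the 3 stages against 9046, 11489 and 10414. Of 18 MI libraries, 10 correlated best with their own number among the 3 sham libraries of the stage, a count not set against chance.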
